A study of Mus musculus with 6 samples.

Results

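The 10 genes described here are genes that fat cells express: Adipoq, Cfd, Retn and Lep, which encode secreted proteins, Plin1, Plin4 and Cidec, which encode proteins of the lipid droplet, Fabp4, which encodes a fatty acid binding protein, and Pck1 and Scd1, which encode metabolic enzymes. They were taken by symbol from a table of 13226 genes, and all 10 were present. The choice was made with their levels in these muscles known, and in particular with the muscle Yap-shRNA 3 known to hold the highest levels, so the levels and fold changes of the 10 genes are given as a description, with no test. RNA was sequenced from whole tibialis anterior (TA) muscles of male C57BL/6 mice that were treated at 8 weeks of age and examined 7 days later. A TA muscle was injected with AAV6:Yap-shRNA, an adeno-associated viral vector carrying a short hairpin RNA against Yap, and the TA muscle of the opposite limb received the control vector. There were 3 muscles in each group, from 3 animals. The control vector was named AAV6:LacZ-shRNA in the vector label and an empty vector in the sample titles, and the muscles that received it are called control here. The vector plasmids carried the CMV promoter, which is not restricted to muscle fibres, the Yap hairpin was placed in a plasmid that also carried eGFP, and the mice had no engineered allele.

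White adipocytes store triglyceride in a single large lipid droplet that is coated by perilipins, and release fatty acids from it when energy is needed. They also secrete hormones, of which adiponectin (Adipoq) and leptin (Lep) are the best known, and their gene programme is driven by the nuclear receptor PPARγ together with C/EBP transcription factors. Skeletal muscle holds few adipocytes, which lie between its fibres and along its fascia, together with fibro-adipogenic progenitors, the stromal cells from which they can form. Fabp4 and Scd1 are also expressed outside adipocytes, as Fabp4 is in the endothelial cells of capillaries, and Plin4 is expressed in muscle fibres. Yap, the product of Yap1, is a transcriptional coactivator of the Hippo pathway that binds DNA through TEAD factors.

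Promoter sequences are shown for the genes that were highest in Yap-shRNA 3 and had a sequence, and for Plin4, which was lowest there, so that the letters upstream of their starts can be compared. The sequences are from RefSeq on build GRCm38.p6, 5′ to 3′ on the strand of the gene, and they lie within the 250 bases before an annotated start and outside every GENCODE exon. Capitals mark matches to 6 short motifs, searched on both strands: the C/EBP core TTGCNNAA, the TEAD motif GGAATG, the nuclear receptor half-site AGGTCA, the TATA box TATAAA, the CCAAT box CCAAT and the GC box GGGCGG. The direct repeat of the half-site bound by PPARγ, known as DR1, was also searched, allowing 2 mismatches. A sequence was found for 8 of the 10 genes, with 9 windows in all because Cidec has 2 annotated starts, and none was found for Fabp4 and Scd1. The stretches lie at chr16:23146286-23146535 on the plus strand for Adipoq, chr10:79890603-79890852 and chr8:3655520-3655769 on the plus strand for Cfd and Retn, chr6:29059971-29060219 on the plus strand for Lep, chr7:79732904-79733026 on the minus strand for Plin1, chr6:113435761-113436010 and chr6:113434765-113435014 on the minus strand for the upstream and downstream starts of Cidec, and chr17:56109804-56110032 on the minus strand for Plin4.
Adipoq: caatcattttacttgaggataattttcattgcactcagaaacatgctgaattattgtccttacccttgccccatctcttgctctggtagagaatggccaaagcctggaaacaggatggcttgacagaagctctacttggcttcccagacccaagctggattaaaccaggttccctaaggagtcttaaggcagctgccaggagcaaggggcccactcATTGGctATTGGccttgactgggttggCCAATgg
Cfd: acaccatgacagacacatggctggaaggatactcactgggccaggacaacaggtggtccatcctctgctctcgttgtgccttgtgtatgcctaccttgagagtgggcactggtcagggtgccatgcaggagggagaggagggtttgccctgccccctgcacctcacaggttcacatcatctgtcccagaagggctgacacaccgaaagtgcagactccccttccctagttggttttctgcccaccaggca
Retn: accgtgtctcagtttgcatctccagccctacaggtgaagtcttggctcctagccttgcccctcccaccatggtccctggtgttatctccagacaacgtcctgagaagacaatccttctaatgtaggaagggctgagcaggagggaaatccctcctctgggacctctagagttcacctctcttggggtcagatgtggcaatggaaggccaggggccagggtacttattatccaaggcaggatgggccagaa
Lep: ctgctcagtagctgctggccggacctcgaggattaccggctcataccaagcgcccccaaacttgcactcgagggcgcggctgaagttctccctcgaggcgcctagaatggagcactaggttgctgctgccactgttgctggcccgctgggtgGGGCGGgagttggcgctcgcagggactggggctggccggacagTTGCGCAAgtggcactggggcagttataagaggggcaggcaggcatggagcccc
Plin1: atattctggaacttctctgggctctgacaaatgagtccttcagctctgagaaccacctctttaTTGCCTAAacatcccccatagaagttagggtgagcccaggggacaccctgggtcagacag
Cidec, upstream start: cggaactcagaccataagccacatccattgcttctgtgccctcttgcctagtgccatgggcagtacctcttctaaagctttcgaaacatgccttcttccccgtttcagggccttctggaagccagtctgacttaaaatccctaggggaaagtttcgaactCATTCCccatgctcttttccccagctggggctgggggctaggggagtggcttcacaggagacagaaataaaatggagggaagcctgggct
Cidec, downstream start: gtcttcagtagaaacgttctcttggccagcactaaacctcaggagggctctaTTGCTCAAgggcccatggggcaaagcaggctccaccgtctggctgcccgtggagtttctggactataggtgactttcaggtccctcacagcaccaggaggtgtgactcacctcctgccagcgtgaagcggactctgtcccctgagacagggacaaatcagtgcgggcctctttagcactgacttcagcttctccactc
Plin4: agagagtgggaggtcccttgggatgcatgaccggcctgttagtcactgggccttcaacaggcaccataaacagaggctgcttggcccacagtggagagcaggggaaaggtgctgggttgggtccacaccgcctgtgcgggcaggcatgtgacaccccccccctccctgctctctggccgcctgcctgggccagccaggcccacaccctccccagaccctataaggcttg

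A C/EBP core lay in 3 of the 9 windows, beside 9.56% of 32851 mouse promoter windows of the same length. It was at bases −55 to −48 of Lep, at −187 to −180 and −58 to −51 of Plin1 (the second lies in a GENCODE exon and is not printed), and at −198 to −191 of the downstream start of Cidec. A TEAD motif was matched in 1 window, at −90 to −85 of the upstream start of Cidec, beside 12.6% of all windows. CCAAT boxes were matched in Adipoq, at 3 places within the last 34 bases, and in Plin4, at −18 to −14 (in a GENCODE exon and not printed), beside 33.8% of all windows, and GC boxes in Lep and Pck1, beside 32.7%. The half-site, the TATA box and DR1 were matched in 0 of the 9 windows, beside 14%, 12.4% and 3.24% of all windows, and the windows of Cfd and Retn held none of the motifs. A match describes letters and is not evidence that a factor was bound, and these windows leave out most regulatory sequence of the genes.

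The 10 genes did not share 1 pattern. In 7 of them (Adipoq, Cfd, Retn, Lep, Plin1, Cidec and Scd1) the level was highest in Yap-shRNA 3, 4.03- to 9.72-fold over the median of the other 5 muscles, and neither of the other Yap-shRNA muscles exceeded the highest control muscle, except Yap-shRNA 1 for Cidec (2.77 against 2.72 CPM). Plin4 and Fabp4 were lowest in Yap-shRNA 3, and Pck1 was highest in control 3. Of all 13226 genes, 15.4% were highest in Yap-shRNA 3 and 1.51% were at least 2-fold over the median of the other 5 muscles there. Since the genes were chosen for their level in that muscle, nothing is read from the difference between these shares and the count of 7. In whole muscle, a difference in the number of adipocytes and a difference in RNA per adipocyte cannot be told apart.

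**Figure D1:**
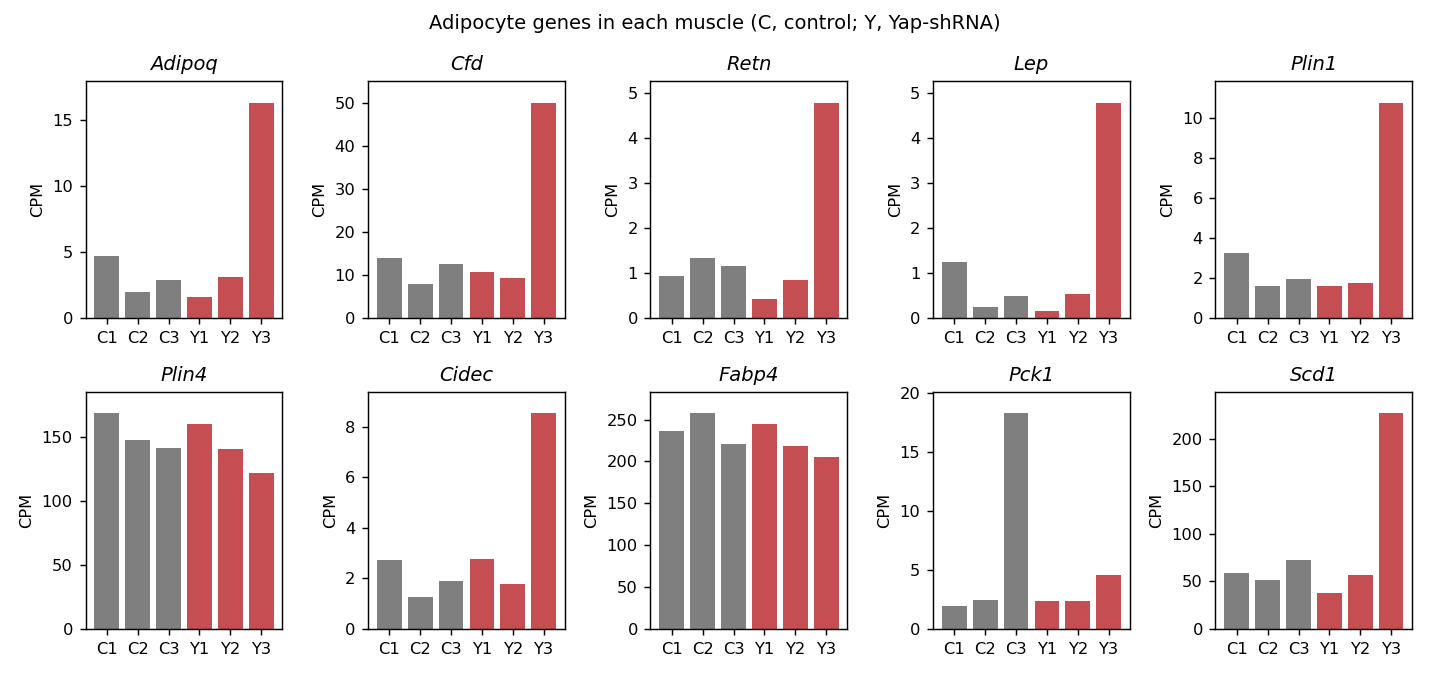
Level of each of the 10 adipocyte genes in CPM (linear axes from 0) in each muscle, grey bars for the 3 control muscles (C1 to C3) and red bars for the 3 Yap-shRNA muscles (Y1 to Y3). In 7 panels Y3 stands above the other 5 muscles, while Plin4 and Fabp4 are lowest in Y3 and Pck1 is highest in C3.

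Adipoq encodes adiponectin, a hormone made almost only by adipocytes, and lies at chr16:23146536-23158028 on the plus strand (ENSMUSG00000022878). Its level in CPM (read counts relative to library size, scaled by the TMM method) was 4.75, 2.01 and 2.87 in control muscles 1 to 3 and 1.59, 3.15 and 16.35 in the Yap-shRNA muscles 1 to 3. The 5 muscles other than Yap-shRNA 3 spanned 2.98-fold, and the groups overlapped. These levels rest on 19 to 61 reads in the other 5 muscles and on 205 reads in Yap-shRNA 3 (95% Poisson interval 178 to 235 reads, which covers counting error only). The group means were 3.21 ± 1.40 CPM for control and 7.03 ± 8.11 CPM for Yap-shRNA (SD, n = 3 muscles each), and the log2 fold change was 1.13 (SE 0.73). Without Yap-shRNA 3 it was −0.43 (SE 0.43).

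Cfd encodes complement factor D, also called adipsin, a serine protease of the alternative complement pathway that adipocytes secrete (chr10:79890853-79892655, plus strand, ENSMUSG00000061780). It was at 14.0, 8.03 and 12.55 CPM in the control muscles and at 10.7, 9.37 and 50.1 CPM in the Yap-shRNA muscles. The 5 muscles other than Yap-shRNA 3 spanned 1.75-fold, and Yap-shRNA 3 lay 3.57-fold over the highest of them. The log2 fold change between the groups was 1.02 (SE 0.58), and −0.20 (SE 0.24) without Yap-shRNA 3.

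Retn encodes resistin, an adipocyte hormone of rodents linked to insulin resistance (chr8:3655770-3660110, plus strand, ENSMUSG00000012705). Its counts were 12, 16 and 14 reads in the control muscles and 5, 11 and 60 reads in the Yap-shRNA muscles. In CPM the control muscles lay between 0.934 and 1.34, and the Yap-shRNA muscles were at 0.42, 0.845 and 4.79. Both Yap-shRNA 1 and Yap-shRNA 2 were below every control muscle and Yap-shRNA 3 was above every one, but the counting intervals of the 5 low muscles overlapped. Between the groups, the log2 fold change was 0.82 (SE 0.74), and −0.83 (SE 0.45) without Yap-shRNA 3.

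Lep encodes leptin, the hormone through which fat mass signals to the brain (chr6:29060220-29073877, plus strand, ENSMUSG00000059201). It had 16, 3 and 6 reads in the control muscles and 2, 7 and 60 reads in the Yap-shRNA muscles. It was the member with the fewest reads, and of the 10 genes it had the largest ratio of Yap-shRNA 3 to the median of the other 5 muscles, 9.72-fold, with 4.79 CPM against 0.168 to 1.245 CPM. The 2 reads of Yap-shRNA 1 have an interval of 0.242 to 7.22 reads, which holds the 3, 6 and 7 reads of 3 other muscles, so no order among those 4 could be read at this depth. The fitted log2 fold change was 1.44 (SE 1.01). It could not be computed without Yap-shRNA 3, because the mean then fell under the minimum of 10 reads per muscle.

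Plin1 encodes perilipin 1, which coats the large droplet of adipocytes and controls access of lipases to it (chr7:79720218-79732903, minus strand, ENSMUSG00000030546). It was at 3.27, 1.59 and 1.97 CPM in control muscles and at 1.59, 1.77 and 10.8 CPM in the Yap-shRNA muscles. Yap-shRNA 3 was 3.29-fold over control 1, the next highest, and the other 4 muscles lay between 1.59 and 1.97 CPM. Its log2 fold change was 1.04 (SE 0.69), and −0.44 (SE 0.38) without Yap-shRNA 3.

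Cidec encodes CIDEC (FSP27), a protein at droplet contact sites that promotes their fusion into larger droplets (chr6:113424634-113435760, minus strand, ENSMUSG00000030278). Its levels were 2.72, 1.25 and 1.89 CPM in control muscles and 2.77, 1.77 and 8.53 CPM in the Yap-shRNA muscles. Yap-shRNA 1 was the second highest muscle, at about the level of control 1. Cidec was the only one of the 9 genes that could be fitted without Yap-shRNA 3 whose log2 fold change was then above 0, at 0.20 (SE 0.40), against 1.15 (SE 0.55) in all 6 muscles.

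Plin4 encodes perilipin 4, which coats small, newly formed droplets (chr17:56100591-56109803, minus strand, ENSMUSG00000002831). It was at 168, 147 and 141 CPM in control muscles and at 160, 140 and 122 CPM in the Yap-shRNA muscles, so Yap-shRNA 3 was the lowest muscle, at 0.828 of the median of the other 5. Yap-shRNA against control gave a log2 fold change of −0.11 (SE 0.12). Plin4 overlaps Hdgfl2, which is also in the table, and since the strand setting of the counting is not given in the sources used here, reads of the overlap may be divided between them in a way that cannot be checked.

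Fabp4 encodes fatty acid binding protein 4, also called aP2, which carries fatty acids in the cytoplasm (chr3:10204088-10208576, minus strand, ENSMUSG00000062515). Its levels were 236.5, 257.5 and 221 CPM in control muscles and 245, 218 and 205 CPM in the Yap-shRNA muscles, again lowest in Yap-shRNA 3. The log2 fold change was −0.10 (SE 0.11). The muscles other than Yap-shRNA 3 spanned 1.18-fold in Fabp4 and 1.2-fold in Plin4, the narrowest spans of the 10 genes.

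Scd1 encodes stearoyl-CoA desaturase 1, which makes monounsaturated fatty acids for triglyceride (chr19:44394455-44407879, minus strand, ENSMUSG00000037071). It was at 59.1, 51.9 and 72.1 CPM in the control muscles and at 37.8, 56.2 and 227 CPM in the Yap-shRNA muscles. Yap-shRNA 3 held 2843 reads against 450 to 879 in the others, so among the 7 genes highest there, Scd1 was the one with the most reads. Between the groups, the log2 fold change was 0.81 (SE 0.55), and −0.38 (SE 0.20) without Yap-shRNA 3. Scd2, a close relative, could share reads with Scd1, and how such reads were counted is not given in the sources used here.

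Pck1 encodes the cytosolic phosphoenolpyruvate carboxykinase, which serves glyceride-glycerol synthesis in fat and glucose synthesis in liver and kidney (chr2:173153048-173159273, plus strand, ENSMUSG00000027513). It was at 1.95, 2.425 and 18.3 CPM in control muscles and at 2.35, 2.38 and 4.545 CPM in the Yap-shRNA muscles. Control 3 was the highest muscle and Yap-shRNA 3 the second, with the other 4 between 1.95 and 2.425 CPM. The fitted log2 fold change was −1.28 (SE 0.77), and it was 0.50 without control 3. In control 3, all 10 of a list of liver markers were also highest: their summed level was 515 CPM there, against 0.479 to 59.6 CPM in the other 5 muscles, and in Yap-shRNA 3, where Pck1 was second, 7 of the 10 had 0 reads. Albumin (Alb) was at 239 CPM in control 3 and 0.319 CPM in Yap-shRNA 3. The part of these transcripts in the Pck1 level of control 3 was not tested.

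Per kilobase of all annotated exons joined, the mean control level was 53.1 CPM per kb for Fabp4 and 26.4 for Plin4, with no overlap between their muscles. For Fabp4 this length, 4489 bases, equals the whole gene, with nothing left out for introns. Its level per kb may therefore be understated, and genes compare only roughly on this scale. Cfd and Scd1 followed at 12.5 each and did not differ beyond the spread of the control muscles. Adipoq at 2.32 and Pck1 at 2.2 overlapped, as did Pck1 and Cidec (1.05), Cidec and Retn (0.722), Retn and Plin1 (0.489), and Plin1 and Lep (0.198). The summed CPM of the 10 genes, to which Fabp4 and Plin4 contributed most in the muscles other than Yap-shRNA 3, was 493, 473.5 and 473.5 in control muscles and 462, 434.5 and 654 in the Yap-shRNA muscles. The sum over the 7 genes highest in Yap-shRNA 3, a set defined by that muscle, was 86.0, 66.4 and 93.0 CPM in control and 55.0, 73.6 and 322 CPM in the Yap-shRNA muscles.

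Relative to Adipoq in the same muscle, Yap-shRNA 3 lay within the range of the other 5 muscles for 4 of the 9 other genes. The ratio of Plin1 to Adipoq in CPM was 0.689, 0.792 and 0.686 in control muscles and 1, 0.561 and 0.659 in the Yap-shRNA muscles. Cfd was at 2.95 to 6.74 of Adipoq in the other 5 muscles and at 3.06 in Yap-shRNA 3, Retn at 0.197 to 0.667 and 0.293, and Scd1 at 12.4 to 25.9 and 13.9. Lep lay just above its range, at 0.293 of Adipoq against 0.105 to 0.262, and Cidec just below, at 0.522 against 0.561 to 1.74. Farther below their ranges were Pck1, at 0.278 against 0.41 to 6.37, Plin4, at 7.45 against 35.5 to 100, and Fabp4, at 12.6 against 49.8 to 154.

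Over the whole table, 0 of the 13226 genes (0%) passed an adjusted p of 0.05 between the groups in the quasi-likelihood test of edgeR (Benjamini-Hochberg adjustment over all genes). Of all genes, 232 had an unadjusted p under 0.05, and 5 genes (0.0378%) passed with DESeq2 and 5 with edgeR's likelihood ratio test. The groups overlapped in each of the 10 genes, and did not overlap in 5.27% of all genes. The median log2 fold change of the 10 genes was 0.92 and that of all genes −0.0029. Without Yap-shRNA 3, the median over the 9 genes that could be fitted was −0.38, with 1 of the 9 above 0, and that of all genes −0.0058. The direction of the group difference in Adipoq, Cfd, Retn, Plin1 and Scd1 therefore rested on 1 muscle.

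**Figure D2:**
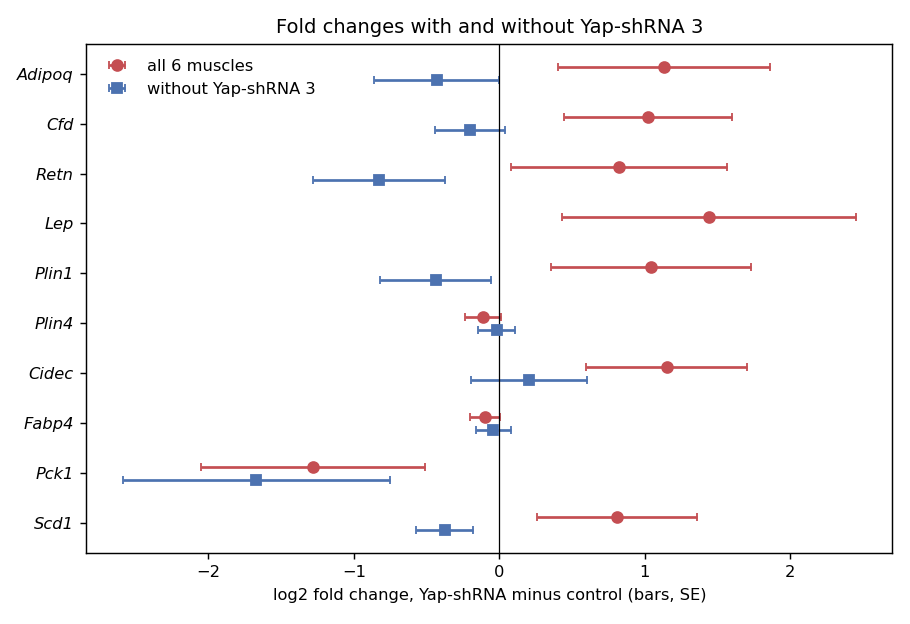
Log2 fold change of each gene, Yap-shRNA minus control, with its standard error, in all 6 muscles (red circles) and without Yap-shRNA 3 (blue squares; Lep could not be fitted). Adipoq, Cfd, Retn, Plin1 and Scd1 lie above 0 with all muscles and below 0 without Yap-shRNA 3, while Plin4, Fabp4 and Pck1 stay below 0.

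The target of the hairpin was checked in every library. Yap1 was at 71.2, 65.3 and 68.35 CPM in control muscles and at 32.0, 23.9 and 39.5 CPM in the Yap-shRNA muscles, a mean of 46.5% of control. The groups did not overlap, and no muscle went against its label. The log2 fold change of Yap1 was −1.10 (SE 0.16), with an adjusted p of 0.436 in edgeR's quasi-likelihood test and 5.85e-07 in DESeq2. Yap-shRNA 3 held the highest Yap1 level of the 3 Yap-shRNA muscles. Libraries held 11987167 to 12710393 reads, and muscle fibre transcripts, led by Acta1 and Myh4, were abundant in each of them, with 123390.1 to 150622.1 summed CPM over 7 markers.

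A wider set of 50 adipocyte genes, none of them among the 10, was examined for the rest of the programme, and 43 were in the table. In 13 of the 43 (30.2%) the level was highest in Yap-shRNA 3, beside 15.4% of all genes, and 3 of the 43 were at least 2-fold over the median of the other muscles there, beside 1.51%. Those 3 were Fasn, Npr3 and Nnat. Npr3 was slightly higher in control 1 (12.45 CPM) than in Yap-shRNA 3 (12.36 CPM). Nnat reached the minimum mean of 10 reads per library only through its 83 reads in Yap-shRNA 3, so nothing is read from these shares. Their median ratio of Yap-shRNA 3 to the median of the other 5 was 1.08, against 0.996 over all genes. None of the 43 passed an adjusted p of 0.05 with edgeR's quasi-likelihood test, DESeq2 or the likelihood ratio test, and 2 had an unadjusted p under 0.05 in the first of these. The median log2 fold change was 0.07, with 29 of 43 above 0. Without Yap-shRNA 3 it was −0.02, with 18 of the 42 that could be fitted above 0.

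Among transcriptional regulators of adipocytes, all 8 listed were in the table and 7 had a log2 fold change above 0. In Yap-shRNA 3, 4 were highest, beside 15.4% of all genes, a count that was not tested. Cebpa, a driver of terminal adipocyte differentiation, was at 6.07, 4.01 and 4.92 CPM in control and 4.45, 4.76 and 9.49 CPM in the Yap-shRNA muscles (log2 fold change 0.32, SE 0.30, and −0.12 without Yap-shRNA 3). Pparg, which encodes PPARγ, was at 2.41, 2.84 and 1.97 CPM in control and 2.35, 2.92 and 3.59 CPM in the Yap-shRNA muscles (0.29, SE 0.26, and 0.13 without Yap-shRNA 3). Both were highest in Yap-shRNA 3, though the ratio to the median of the other muscles was 1.99 for Cebpa and 1.49 for Pparg, below those of Adipoq, Plin1 and Lep. Cebpd, which acts early in differentiation, was highest in Yap-shRNA 2 at 12.1 CPM, and had the largest log2 fold change of the list at 0.40 (SE 0.28). Klf15 at 24.6 to 33.7 CPM and Zfp423 at 12.3 to 16.0 CPM were the most abundant of the list and spanned less than 1.5-fold over the 6 muscles.

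For triglyceride breakdown, 7 of 10 genes were in the table (Adrb3, Hcar1 and Hcar2 were not analysed here), and 0 were highest in Yap-shRNA 3. Pnpla2, which encodes the lipase that starts the process (ATGL), lay between 296 and 394 CPM. The monoglyceride lipase gene Mgll lay between 52.9 and 71.1 CPM, and Lipe, which encodes hormone-sensitive lipase, was at 24.7, 20.8 and 17.2 CPM in control and 24.7, 21.4 and 23.1 CPM in the Yap-shRNA muscles. These genes are also used by muscle fibres. The log2 fold changes of largest size were 0.14 (SE 0.14) for Lipe, −0.12 (SE 0.51) for Pde3b and −0.09 (SE 0.13) for Aqp7, none of which passed the test.

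For lipid synthesis, all 15 genes were in the table and 5 were highest in Yap-shRNA 3, beside 15.4% of all genes. Fasn, which encodes fatty acid synthase, was at 14.9, 20.2 and 25.4 CPM in control muscles and 16.8, 25.8 and 56.1 CPM in the Yap-shRNA muscles, with a log2 fold change of 0.71 (SE 0.39, adjusted p of 1 in edgeR's quasi-likelihood test) that was 0.08 without Yap-shRNA 3. It was 2.77-fold over the median of the other muscles in Yap-shRNA 3, the largest ratio of the list, and Scd1 acts on the saturated fatty acids that Fasn makes. Thrsp, a regulator of lipid synthesis, was at 20.9, 19.8 and 21.3 CPM in control and 15.8, 16.8 and 17.0 CPM in the Yap-shRNA muscles. The groups of Thrsp did not overlap, but the log2 fold change of −0.32 (SE 0.10) did not pass the adjustment over all genes (adjusted p of 1, edgeR's quasi-likelihood test). Dgat1, which encodes an enzyme of the last step of triglyceride synthesis, had a log2 fold change of −0.22 (SE 0.18). Gpd1 at 788 to 1036 CPM and Lpin1 at 337 to 409 CPM were the most abundant of the list, and neither was highest in Yap-shRNA 3.

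Genes for the uptake of fatty acids and glucose numbered 5, all in the table, and 0 were highest in Yap-shRNA 3. Slc2a4, which encodes the insulin-responsive glucose transporter GLUT4, lay between 624 and 834 CPM, and lipoprotein lipase (Lpl) between 304 and 426 CPM. Of the 5, Lpl had the largest log2 fold change, 0.11 (SE 0.14), followed by Slc27a1 at 0.08 (SE 0.18) and Vldlr at −0.06 (SE 0.16).

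Of 12 further adipocyte markers, 8 were in the table (Mrap, Lgals12, Acvr1c and Slc7a10 were not analysed here). Of these 8, 4 were highest in Yap-shRNA 3, beside 15.4% of all genes. Nnat, which encodes neuronatin, had 22, 6 and 6 reads in control muscles and 4, 6 and 83 reads in the Yap-shRNA muscles. Its ratio of Yap-shRNA 3 to the median of the other muscles was 13.4, the largest of the 43 genes, with control 1 second as in Adipoq, Cfd, Lep and Plin1. Adig, named for its expression in fat, did not follow, with 1.75 CPM in Yap-shRNA 3 and 0.856 to 3.77 CPM in the others. Aoc3, an amine oxidase gene of adipocytes and smooth muscle, was at 14.2 CPM in Yap-shRNA 3 and 5.45 to 11.1 CPM in the others. Car3, which is abundant in both fat and slow fibres, was highest in control 1 at 3349 CPM. Rbp4, which encodes the retinol carrier that liver and fat secrete, was at 0.156, 3.68 and 26.9 CPM in control and 0.671, 2.38 and 1.68 CPM in the Yap-shRNA muscles. Rbp4 was thus highest in control 3, the muscle in which the liver markers and Pck1 were highest, and its log2 fold change of −2.68 (SE 1.15) did not pass the test.

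**Figure D3:**
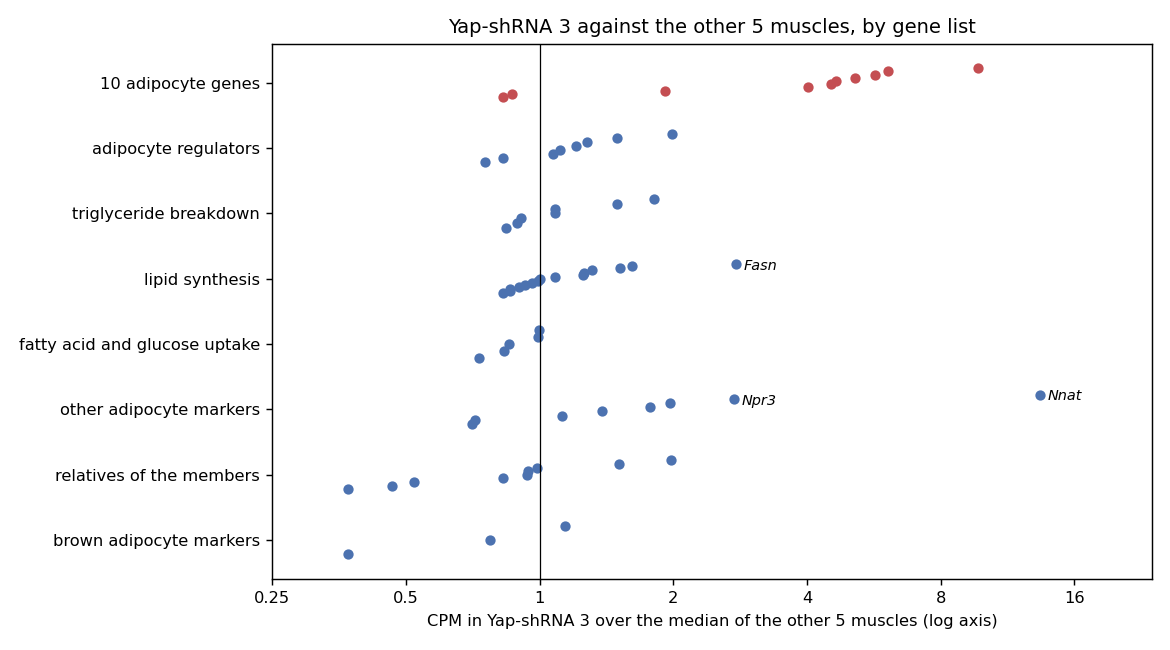
Ratio of the CPM in Yap-shRNA 3 to the median CPM of the other 5 muscles (log axis) for each gene, 1 row of points per list, with the 10 adipocyte genes in red, other lists in blue, and genes of the other lists at 2-fold or more named. In red, 7 points lie between 4.03 and 9.72 and 3 below 2, while in the other lists plotted Fasn, Npr3 and Nnat are at 2 or more.

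Relatives of the 10 genes were examined as 13 listed genes, of which 9 were in the table (Scd3, Scd4, Cideb and Retnlg were not analysed here), and 1 was highest in Yap-shRNA 3. That gene was Scd2, at 33.1, 35.3 and 64.4 CPM in control and 34.4, 32.3 and 68.1 CPM in the Yap-shRNA muscles. Unlike Scd1, Scd2 was about as high in control 3 as in Yap-shRNA 3. The other perilipins did not follow Plin1: Plin2 was at 30.5 CPM in Yap-shRNA 3 and 30.1 to 40.9 CPM in the other muscles, Plin3 at 28.6 and 26.1 to 51.4, and Plin5, which tethers droplets to mitochondria in oxidative tissue, at 18.7 and 25.3 to 51.4. Plin5 was lowest in Yap-shRNA 3, as Plin4 was. Fabp3, the fatty acid binding protein of heart and muscle, was lowest there as well, at 41.9 CPM against 51.8 to 109 CPM, and Fabp5 was at 2.71 CPM against 2.10 to 3.74 CPM. The relative of Cidec, Cidea, was at 0.558 CPM in Yap-shRNA 3 and 0.492 to 1.95 CPM elsewhere. Pck2, the mitochondrial enzyme, stayed between 6.24 and 8.48 CPM, without the high value that Pck1 had in control 3, and Retnla, a product of alternatively activated macrophages, was at 19.8 CPM in Yap-shRNA 3 and 5.91 to 24.25 CPM elsewhere. No relative passed the test between the groups.

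Receptors of adipocyte hormones and a partner of Cfd in the complement pathway were also examined. C3, the complement protein that the pathway of Cfd activates, was at 60.01, 45.65 and 56.9 CPM in control and 60.5, 55.6 and 92.9 CPM in the Yap-shRNA muscles (log2 fold change 0.36, SE 0.19, and 0.10 without Yap-shRNA 3). The adiponectin receptors Adipor1 (335 to 378 CPM) and Adipor2 (150 to 172 CPM) and the adiponectin-binding cadherin Cdh13 (108 to 144 CPM) spanned 1.5-fold or less. The leptin receptor gene Lepr was at 2.47 CPM in Yap-shRNA 3 and 0.768 to 2.18 CPM in the others. None of these genes passed the test.

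Brown adipocyte markers were in the table for 3 of 6 genes (Ucp1, Elovl3 and Otop1 were not analysed here), and none of the 3 was highest in Yap-shRNA 3. Dio2, which encodes an enzyme that activates thyroid hormone, was at 2.15 CPM in Yap-shRNA 3 and 1.15 to 4.90 CPM in the others. Zic1 was at 1.04 CPM in Yap-shRNA 3 and 0.418 to 2.10 CPM in the others, and Cidea is given above. All 3 were highest in control 1.

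Markers of other cell types that whole muscle holds differed between the same muscles to different degrees. Counts of markers highest in Yap-shRNA 3 stand beside 15.4% of all genes highest there, and were not tested. Of 5 tendon markers, 3 were highest in Yap-shRNA 3 and 2 in control 1, and none was at 0 in any muscle. Their sum was 639, 174 and 126 CPM in control and 169, 145 and 529 CPM in the Yap-shRNA muscles, so control 1 and Yap-shRNA 3 stood apart from the other 4. Thbs4 and Fmod, the most abundant of them, were at 301 and 299.5 CPM in control 1 and at 220 and 267 CPM in Yap-shRNA 3, while Fmod lay between 30.6 and 49.2 CPM in the other 4 muscles. Control 1 was also the second highest muscle for Adipoq, Cfd, Lep and Plin1, at levels 3.29- to 3.84-fold lower than in Yap-shRNA 3. The part of tendon or tissue near it in these levels was not tested.

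Fibro-adipogenic progenitor markers, which include Dcn and Smoc2 as the most abundant, were highest in Yap-shRNA 3 in 5 of 8 genes. Over all genes this share was 15.4%, and no test was made of the counts given here. They summed to 799, 675 and 579 CPM in control and 808, 653 and 914 CPM in the Yap-shRNA muscles, 1.36-fold over the median of the other 5 in Yap-shRNA 3. Macrophage markers, with Lyz2 and C1qb the most abundant, were highest there in 5 of 10 genes and summed to 237, 148 and 101 CPM in control and 173, 205 and 222.5 CPM in the Yap-shRNA muscles. Endothelial markers, led by Cdh5 and Pecam1, summed to 545 to 634 CPM in the other 5 muscles and 580.5 CPM in Yap-shRNA 3. There, 1 of 10 was highest. Their sum showed little spread, but single markers differed in this. Cldn5 lay between 17.6 and 29.5 CPM and Emcn between 12.3 and 19.9 CPM, while Eng lay between 70.1 and 76.2 CPM. Red cell markers, led by Hbb-bs and Hba-a1, summed to 120 to 242.5 CPM in the other 5 muscles and 101 CPM in Yap-shRNA 3. Of 4 keratinocyte markers, Krt10 alone was in the table, at 1.59 CPM in Yap-shRNA 3 and 1.51 to 2.18 CPM in the others. The part of these cell types in the levels of the 10 genes was not tested.

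**Figure D4:**
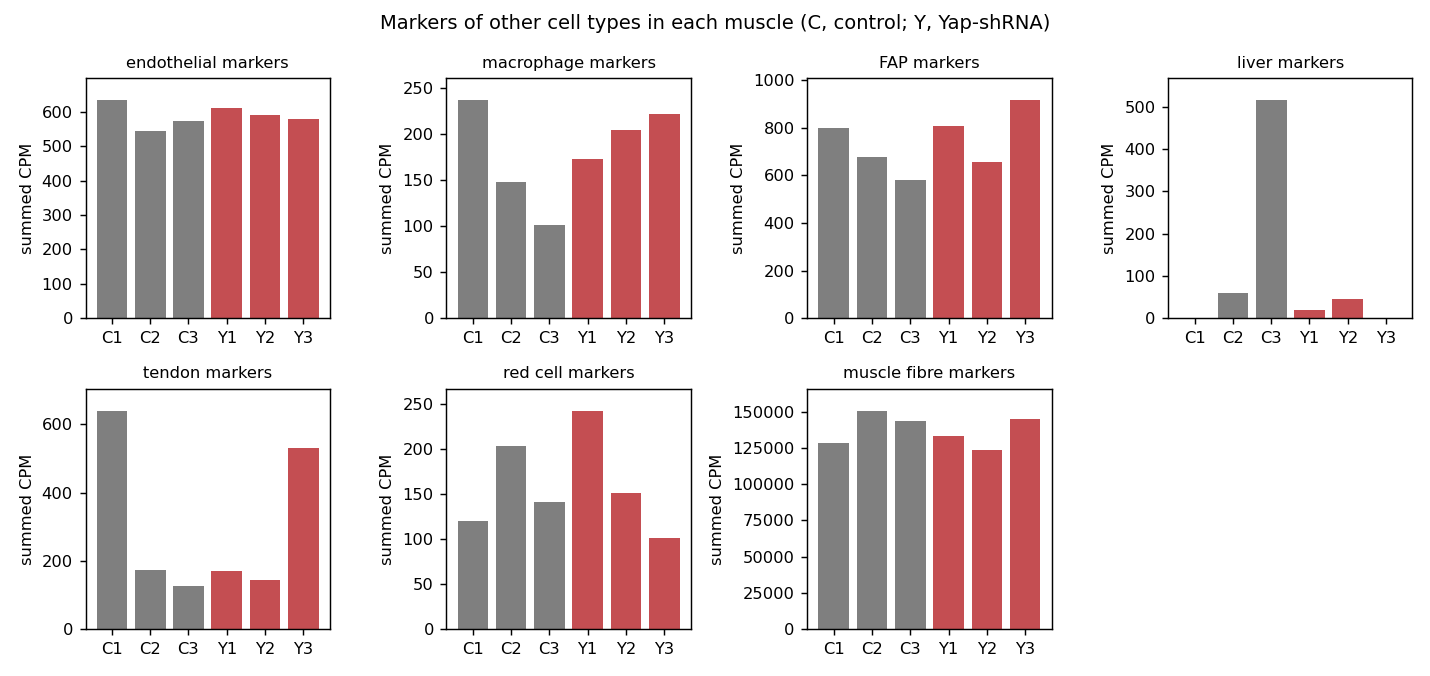
Summed CPM of marker lists of other cell types in each muscle (linear axes from 0), grey bars for control muscles (C1 to C3) and red bars for Yap-shRNA muscles (Y1 to Y3), with FAP for fibro-adipogenic progenitors. Tendon markers stand high in C1 and Y3 (639 and 529 CPM), liver markers in C3 (515 CPM), and endothelial markers lie between 545 and 634 CPM in all muscles.

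The genes whose pattern over the 6 muscles was most like the mean of the 10 were found by the smallest root-mean-square difference of centred log2 CPM (2 reads added). They were Cd209f (0.231), Pdgfc (0.254), Wisp2 (0.259), Fjx1 (0.259), Efhd1 (0.265), Lrtm2 (0.266), Dact3 (0.279), Cdh11 (0.281), Gm7150 (0.282) and Cpz (0.288). All 10 had their highest level in Yap-shRNA 3, 2- to 4.74-fold over the median of the other muscles. Wisp2, a secreted matricellular protein of stromal cells, had 22, 17 and 16 reads in control and 12, 16 and 78 reads in the Yap-shRNA muscles. Of these, 8 had fewer than 30 reads in the muscles other than Yap-shRNA 3, so their order is weakly determined by the data. Fjx1 reached the minimum mean of 10 reads per library only through Yap-shRNA 3. Of the 10 genes themselves, Scd1 (0.217) and Cfd (0.272) lay nearest to the mean, and Pck1 (1.07), Plin4 (0.765) and Fabp4 (0.74) farthest from it.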

How the data were processed

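Polyadenylated RNA of 6 TA muscles (3 control, 3 Yap-shRNA) was sequenced with Illumina TruSeq libraries. The deposited table holds raw read counts for each gene. The submitters' processing notes name bcl2fastq 2.20.0.422 and build GRCm38, and the aligner, counter, annotation and strand setting are not given in the sources used here. Each gene of the 13226 had at least 60 reads over the 6 libraries, so a filter on low counts was already applied. Libraries held 11987167 to 12710393 reads.

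Counts were scaled by TMM and fitted by group, with no other term, using the quasi-likelihood test of edgeR 4.0.16 (R 4.3.3), on genes with a mean of at least 10 reads per library, with Benjamini-Hochberg adjustment over all genes and a threshold of 0.05. The biological coefficient of variation was 15.7%. DESeq2 1.42.0, the likelihood ratio test, limma-voom (limma 3.58.1), other scalings and filters, the replicate number as a block and leaving out each muscle were alternatives. Standard errors are the log2 fold change over the square root of the test statistic. On counts simulated for this comparison over 13084 genes, the quasi-likelihood test recovered 148 of 199 changed genes with 16 false calls. DESeq2 recovered 150 with 29 false calls, and the likelihood ratio test 163 with 36. The false share of the calls was thus above 0.05 for each test. Genes were simulated independently, without the tissue differences seen between these muscles, so the counts do not give the power of the test in these data. Gene positions, exon lengths and overlaps were taken from GENCODE, and motif positions were counted from the RefSeq start.

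Groups and replicate numbers came from the sample labels. The control and treated muscles were paired in 3 animals, but no label ties equal numbers to an animal, so p-values measure the spread between these muscles. No library repeated another of its group (chi-square over degrees of freedom 7.71 to 21.7). The 10 genes, the lists and the tests were chosen with earlier results of these data known. The genes named are the 10, Yap1, all relatives, receptors and brown markers in the table, from each wider list the 3 of largest fold change and the 2 most abundant, the 10 of most similar pattern, and the 2 most abundant of each other cell type list. Some genes that this rule would name are not reported here. Alb, Npr3 and genes outside this rule were named after their values were seen.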

Additional observations from a re-analysis of the deposited data

How the results depend on the processing

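Of 137 fold changes of single members of the 10 genes under other settings, 130 lay within 1 SD of the reported value and 6 had the other sign, 5 of them without Yap-shRNA 3 and the other that of Pck1 without control 3 (0.50). The median over the 10 genes was 0.92, and ranged from −0.377 without Yap-shRNA 3 to 1.33 without Yap-shRNA 1 when 1 muscle was left out. It was 0.444 with limma-voom. The summed CPM of the 10 genes in Yap-shRNA 3 was 1.38-fold over the median of the other 5 and 1.38- to 1.40-fold under the alternatives. The count of genes past the threshold was 0 with edgeR's quasi-likelihood test, 5 with DESeq2, 5 with the likelihood ratio test, and 0 to 1 when 1 muscle was left out. Yap1 kept a log2 fold change of −1.10 with DESeq2 and the likelihood ratio test and passed there (adjusted p of 5.85e-07 and 2.22e-06). Its adjusted p was 0.105 to 1 under the other alternatives. Deviations from the group means correlated at −0.0654, 0.196 and −0.315 between muscles of equal number, and the highest of all 9 values was 0.383, between control 1 and Yap-shRNA 3, so the data do not show which muscles share an animal. With the replicate block, the median of the 10 genes was 0.524, Yap1 was at −1.13 and 0 genes passed. The counts of genes highest in Yap-shRNA 3 were chosen after seeing the data. They can only stay or rise when another muscle is left out, so they are no test of stability. They were 7 of the 10 genes without control 1, control 2, Yap-shRNA 1 or Yap-shRNA 2, and 8 without control 3. For the 43 wider genes they were 13 to 16. The cause of the changes between settings was not tested. Depth limits Lep and Retn, with 2 to 16 reads outside Yap-shRNA 3.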

Other observations

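At or above the ratio of Adipoq between Yap-shRNA 3 and the median of the other 5 muscles (5.69) lay 21 of 13226 genes (0.159%), of which Lep, Plin1 and Adipoq are 3. These genes were named after their values were seen, and no test was made of them. Aldh3a1 had the largest ratio (18.8-fold), with 3, 0 and 2 reads in control muscles and 17, 5 and 55 reads in Yap-shRNA muscles. Its median over the other 5 muscles was 3 reads. Among genes outside the 10 with a median above 3 reads there, a cut set after the values were seen, Chad had the largest ratio (17-fold). Nnat (13.4-fold), 1500015O10Rik (12.6-fold) and Sfrp4 (12.3-fold) followed. Aldh3a1, Nnat and 1500015O10Rik reached the minimum mean of 10 reads per library only through Yap-shRNA 3. Genes as low elsewhere but not high there are absent, so the filter favours such ratios. Chad had 513, 29 and 12 reads in control muscles and 19, 8 and 339 reads in Yap-shRNA muscles, so it was high in control 1 as well. Sfrp4, which encodes a secreted Wnt inhibitor, had 51, 28 and 32 reads in control and 20, 20 and 361 reads in the Yap-shRNA muscles. Wif1, which encodes another, was at 9.91-fold and was high in control 1 too, with 3.11 CPM there, 5.82 CPM in Yap-shRNA 3 and 0 to 0.92 CPM in the others.

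With the 7 genes highest in Yap-shRNA 3 alone as the pattern, a set defined after their values were seen, the nearest genes were Wisp2 (root-mean-square difference 0.2), Cdh11 (0.302), Serpina3c (0.327), Cd209f (0.351) and Sfrp2 (0.397). Serpina3c, whose product is known from adipose tissue, had 16, 10 and 8 reads in control muscles and 8, 7 and 41 reads in Yap-shRNA muscles. It too reached the minimum mean of 10 reads per library only through Yap-shRNA 3. Within the progenitor markers, Pi16 and Dpp4, which mark a progenitor of the fascia, had the largest ratios in Yap-shRNA 3, 2.4 and 2.16, with Pi16 at 28.6, 23.3 and 29.8 CPM in control and 38.1, 26.3 and 68.7 CPM in Yap-shRNA muscles. Pi16 had a log2 fold change of 0.70 (SE 0.30), or 0.24 without Yap-shRNA 3, and did not pass the adjustment over all genes.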
